A study of Mus musculus with 12 samples.

Results

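The tumor necrosis factor (TNF) ligand and receptor superfamily was examined in nuclear RNA of adult mouse cardiomyocytes. Its members were the genes whose symbol begins with Tnfsf or Tnfrsf and a digit, together with Tnf, Lta, Ltb, Ltbr, Cd40, Cd40lg, Cd27, Fas, Fasl, Eda2r and Edar. They came to 43 of the 46983 gene symbols counted, with 16 ligands, 26 receptors and 1 antisense RNA, Tnfsf13os, whose symbol fits the same pattern. All 43 had a count in at least 1 library, and 30 passed the filter on low counts and were tested.

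Control animals carried Myh6-MCM, a tamoxifen-inducible Cre recombinase driven by the promoter of the cardiac alpha-myosin gene Myh6, and were given tamoxifen. YAP5SA animals were Yap5SA+/tg; Myh6-MCM, so that they shared the Cre and the drug with the controls. In addition they held a transgene for YAP5SA, a version of the co-activator YAP that escapes inhibition by the Hippo kinases. Both groups were adult, and the labels used here give neither the dose of tamoxifen, nor the time after it, nor whether the replicates of a group were different mice. The p-values therefore cover the spread among libraries, which may be technical. Nuclei had been captured on beads through PCM1, a protein that marks the nuclei of cardiomyocytes in the heart, and each group had replicates 1 and 2.

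Ligands of this family are mostly membrane proteins that form trimers and can be shed, and their receptors signal in a few ways. Receptors with a death domain, such as Fas and the TNF receptor encoded by Tnfrsf1a, can recruit FADD or TRADD and lead to caspase activation or to NF-kB. Receptors without that domain bind TRAF adaptors and lead to NF-kB and kinase signaling, and decoy receptors bind ligand without signaling. In the heart, TNF itself and the receptor Fn14, encoded by Tnfrsf12a, are known for their part in injury and remodeling.

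Total counts ran from 7850661 to 15012122 per library, and the members took 3371 to 10159 of them. Markers of the labelled cell type were abundant. Myh6 was at 2144 to 6614 CPM (read counts scaled by TMM to a common library size) and Ttn at 15501 to 48149 CPM. However, 7 of 8 cardiomyocyte markers lay lower in both YAP5SA libraries than in both control libraries, beside 28.3% of all tested genes. The 8 summed to 31776 and 64100 CPM in control and 22628 and 23722 CPM in YAP5SA. Fibroblast markers were abundant too. The 7 followed summed to 5580 and 4177 CPM in control and 3608 and 4438 CPM in YAP5SA, with overlap between the groups. Macrophage and endothelial markers moved with the groups. The summed level of 13 macrophage and monocyte markers was 807 and 603 CPM in control replicates 1 and 2 and 1413 and 1699 CPM in YAP5SA replicates 1 and 2, and that of 8 endothelial markers was 1470.5 and 1050 against 769 and 733 CPM. The 8 T and NK cell markers summed to between 3.10 and 4.23 CPM in every library. The B cell marker Cd79a had 79 and 8 counts in control and 6 and 9 in YAP5SA, so control replicate 1 alone stood high. The smooth muscle marker Acta2 was at 158 and 97.5 CPM in control and 712 and 917 CPM in YAP5SA and rose (log2 fold change 2.67, adjusted p = 0.0284). Its list did not move as a whole. Of 6 smooth muscle and pericyte markers 3 had a positive and 3 a negative fold change (median -0.10), and Acta2 alone passed. In such bulk samples, fewer cells of a type and less RNA per cell cannot be told apart. The part of these shifts in the results below was not tested.

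Of the 30 tested members, 3 rose in YAP5SA at an adjusted p under 0.05 and 0 fell, where 3.12% of all 17715 tested genes rose and 0.999% fell, 4.12% in all. DESeq2 called 4 members higher and 1 lower on the same 17715 genes, of which it called 5.84% higher and 3.36% lower, and called the same members on all 30546 genes with a count. The members that rose were the ligand genes Tnfsf15 and Tnfsf18 and the receptor gene Eda2r. At an unadjusted p under 0.05 there were 9 higher and 1 lower members, beside 12.7% and 10.9% of all tested genes, or 23.7% in both directions together. Both YAP5SA libraries lay above both control libraries for 15 tested members and below them for 5, beside 28.1% and 28.3% of all tested genes. The median log2 fold change was 0.43 over the tested members and -0.06 over all tested genes. Of the tested members, 26 reached the filter level in all 4 libraries, and Tnfsf15, Tnfsf8 and Tnf reached it in both YAP5SA libraries but not in both control libraries, so their passing the filter was itself tied to a higher YAP5SA level. Tnfrsf9 reached it in 1 library of each group.

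**Figure D1:**
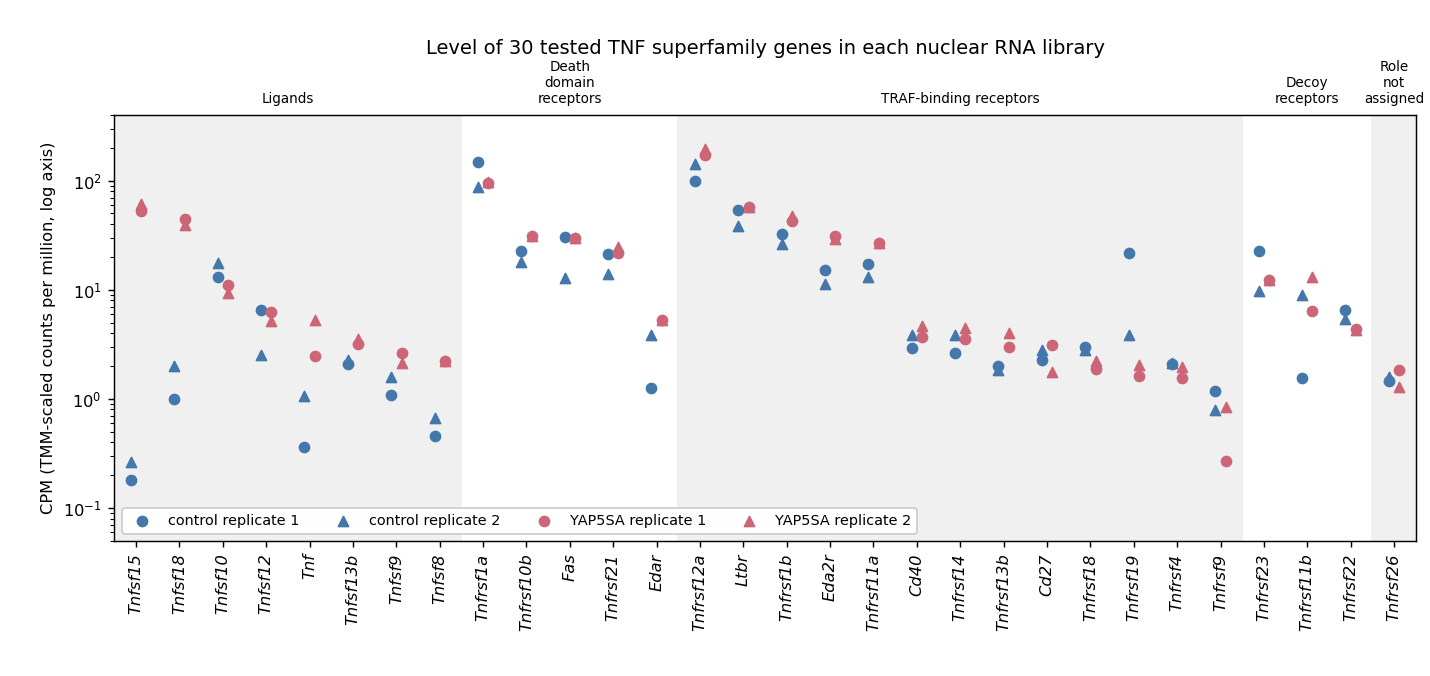
Level of each tested member in CPM on a log axis, with control libraries in blue and YAP5SA libraries in red (circles for replicate 1, triangles for replicate 2), grouped by role and ordered by YAP5SA level. Tnfsf15 and Tnfsf18 sit below 2 CPM in control and between 39.0 and 61.2 CPM in YAP5SA, while the most abundant receptors, Tnfrsf12a and Tnfrsf1a, stay between 87.6 and 194 CPM in all libraries.

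The 250 bases before the RefSeq start site of the 3 genes that rose are shown because TEAD factors, through which YAP acts on DNA, recognise the element GGAATG. Each window holds that element in 1 place, on the reverse strand, where it reads CATTCC and is printed in capitals. Sequences are from RefSeq, build GRCm38.p6, 5′ to 3′ on the strand of the gene: chr4:63745060-63745309 (minus strand) for Tnfsf15, chr1:161494407-161494656 (plus strand) for Tnfsf18 and chrX:97377210-97377459 (minus strand) for Eda2r.
Tnfsf15: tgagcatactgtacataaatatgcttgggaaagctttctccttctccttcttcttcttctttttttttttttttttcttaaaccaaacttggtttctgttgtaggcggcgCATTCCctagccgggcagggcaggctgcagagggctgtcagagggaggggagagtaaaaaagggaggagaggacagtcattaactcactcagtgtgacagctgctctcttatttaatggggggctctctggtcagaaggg
Tnfsf18: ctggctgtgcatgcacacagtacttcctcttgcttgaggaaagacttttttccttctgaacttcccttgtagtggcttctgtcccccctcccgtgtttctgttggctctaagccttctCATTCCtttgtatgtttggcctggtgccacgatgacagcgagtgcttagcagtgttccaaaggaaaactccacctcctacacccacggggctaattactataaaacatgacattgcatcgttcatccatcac
Eda2r: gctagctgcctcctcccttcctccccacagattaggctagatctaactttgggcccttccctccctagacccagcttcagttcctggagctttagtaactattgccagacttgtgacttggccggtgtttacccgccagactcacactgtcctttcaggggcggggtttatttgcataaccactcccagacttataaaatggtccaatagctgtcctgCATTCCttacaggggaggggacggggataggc
The element began 140 bases before the start in Tnfsf15, 132 bases before it in Tnfsf18 and 32 bases before it in Eda2r. On either strand it occurred in 12.6% of all 32851 RefSeq windows of this length, and in windows of 7 of the 33 members that had one. The other 4 members with it were Edar, Tnfrsf11a, Tnfrsf1b and Tnfsf13. In the same windows the AP-1 element TGANTCA was found for 6 members and 6.75% of all windows, and the NF-kB kappaB element for 3 members and 3.90% of all windows. Neither of those was found for the 3 genes that rose. A match is a description of these letters and shows no binding.

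Among the ligands, Tnfsf15, close to absent in control, and Tnfsf18, low in control, stood out. Tnfsf15 encodes TL1A, the ligand of death receptor 3. It had 2 counts in each control library and 785 and 806 counts in YAP5SA replicates 1 and 2, which is 0.181 and 0.264 CPM against 52.9 and 61.2 CPM. Both YAP5SA libraries were high, both control libraries were under the 3 counts that a count of 0 allows, and the groups were far apart. The log2 fold change was 7.98 (SE 0.303, adjusted p = 0.00425), and the ratio of summed counts was 264 with an exact 95% counting interval of 103 to 971. Tnfsf15 lies on chromosome 4 (63727084 to 63745113, mm10, minus strand) and ranked 3 of 17715 tested genes by log2 fold change. Its exons overlap those of no other annotated gene.

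Tnfsf18 encodes the ligand of GITR, a receptor known from regulatory T cells. Its counts were 11 and 15 in control replicates 1 and 2, as against 655 and 514 in YAP5SA, or 0.996 and 1.98 CPM against 44.1 and 39.0 CPM. Control was low in both replicates, and the groups did not overlap. It rose 28.8-fold (log2 fold change 4.85, SE 0.340, adjusted p = 0.0112), and it lies on chromosome 1 (161494655 to 161505290, plus strand). For both ligands the call held under all 13 alternatives, with adjusted p of at most 0.0158 for Tnfsf15 and 0.0179 for Tnfsf18. The 13 macrophage markers summed to a 2.21-fold higher level in YAP5SA and the 8 endothelial markers to a 0.596-fold level, and their part in the rise of these ligands was not tested.

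The other tested ligands did not pass. For these and later genes, fits without 1 control library are also given. Such a fit assumes that the lone control library varies like the YAP5SA pair, whose replicates lay closer together. Calls grew over all genes in these fits, so a pass there says little about a single gene. Tnfsf10, which encodes TRAIL, an inducer of cell death, was at 13.1 and 17.6 CPM in control and 11.1 and 9.42 CPM in YAP5SA, so both YAP5SA values were the lower ones (log2 fold change -0.58, SE 0.249, adjusted p = 0.238). It passed as lower without control replicate 1. Tnfsf12, which encodes TWEAK, the ligand of Fn14, was at 6.52 and 2.51 CPM in control and 6.20 and 5.16 CPM in YAP5SA. Its control libraries differed from each other by more than the groups did, and the log2 fold change of 0.31 (adjusted p = 0.744) was 1.19 without control replicate 1, where it passed, and -0.16 without control replicate 2.

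Tnf and Tnfsf8 are described after their values were seen. Tnf, the founding cytokine of the family, had 4 and 8 counts in control and 37 and 69 in YAP5SA, or 0.362 and 1.06 CPM against 2.49 and 5.24 CPM. All YAP5SA values were above all control values, but within each group one replicate was over 2-fold above the other, and Tnf missed the threshold (log2 fold change 2.51, SE 0.673, adjusted p = 0.105). It passed with DESeq2, with no filter and without either control library. Macrophages are a known source of TNF. Their 13 markers were all higher in both YAP5SA libraries and 5 passed the threshold, beside 28.1% and 3.12% of all tested genes. The part of macrophages in the Tnf difference was not tested. Tnfsf8, which encodes the ligand of CD30, had 5 counts in each control library and 33 and 29 in YAP5SA (log2 fold change 2.00, SE 0.455, adjusted p = 0.0753). It passed with no filter and without either control library.

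The remaining ligands were scarce. Tnfsf9, which encodes the ligand of 4-1BB, was at 1.09 and 1.59 CPM in control and 2.63 and 2.13 CPM in YAP5SA. Tnfsf13b, which encodes the B cell survival factor BAFF, was at 2.08 and 2.25 CPM against 3.17 and 3.57 CPM. Neither passed (adjusted p = 0.289 and 0.321), though the groups did not overlap in either. Among the 8 untested ligands no library had more than 23 counts. Ltb, which encodes lymphotoxin beta, had 0 and 4 counts in control and 23 and 9 in YAP5SA, a ratio of summed counts of 5.31 (counting interval 1.88 to 20.7), and Tnfsf14, which encodes LIGHT, had 5 and 2 against 10 and 14 counts (ratio 2.28, interval 0.952 to 6.26). The other 6, namely Tnfsf4, Fasl, Tnfsf11, Tnfsf13, Lta and Cd40lg, had at most 6 counts in any library. Tnfsf13os, antisense to Tnfsf13, had 9 and 2 counts against 4 and 6.

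The make-up of the ligand genes differed between the groups. Summed over the 16 ligands, the level was 26.4 and 29.5 CPM in control and 128 and 131 CPM in YAP5SA. Without Tnfsf15 and Tnfsf18, the other 14 summed to 25.3 and 27.2 CPM in control and 30.9 and 30.8 CPM in YAP5SA. Per kilobase of annotated exon, Tnfsf15 and Tnfsf18 together made up 5.50% and 11.1% of the ligand level in control and 74.6% and 74.2% in YAP5SA. These genes were singled out after their values were seen. In control replicate 1 the largest share, 44.2%, was that of Tnfsf12, and in control replicate 2 it was that of Tnfsf10, with 35.5%. Tnfsf12 made up 17.6% in control replicate 2. Exons of Tnfsf12 and Tnfsf13 overlap Tnfsfm13 on the same strand, and those of Tnfsf9 overlap Gm11110 on the other strand. How reads were divided among these genes is uncertain.

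**Figure D2:**
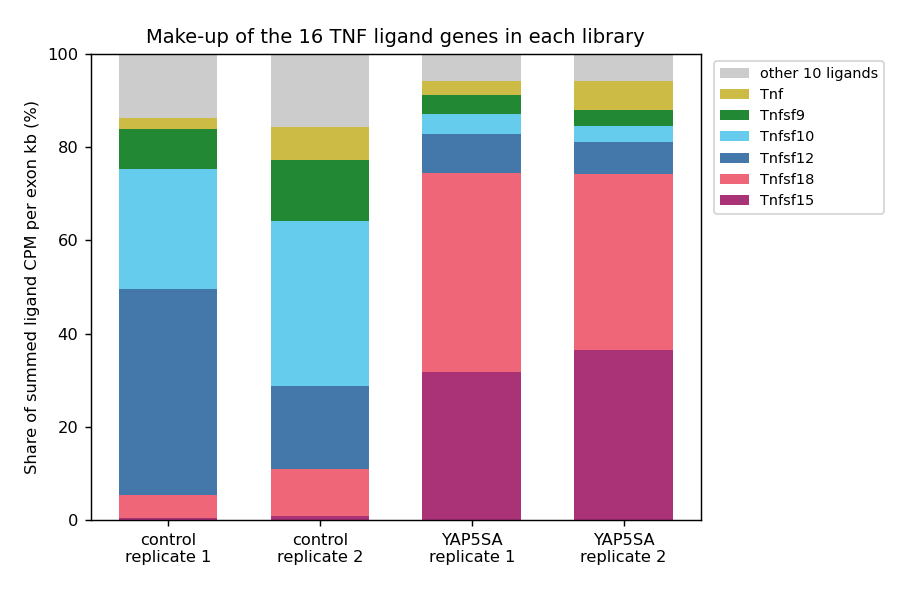
Share of each ligand gene, in percent of the summed CPM per kilobase of exon over the 16 ligands, as 1 stacked bar per library. Tnfsf15 and Tnfsf18 fill 74.6% and 74.2% of the YAP5SA bars and 5.50% and 11.1% of the control bars.

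Of 22 tested receptors 1 rose and 0 fell with edgeR, beside 3.12% and 0.999% of all tested genes. At an unadjusted p under 0.05, 5 were higher and 1 lower, beside 12.7% and 10.9%. DESeq2 called Eda2r higher and Tnfrsf19 lower, beside 5.84% and 3.36% of the same 17715 genes. The median log2 fold change of the tested receptors was 0.32. The summed level of all 26 receptors was 512 and 416 CPM in control and 556 and 596 CPM in YAP5SA. The 1 that rose was Eda2r, which encodes a TRAF-binding receptor for an isoform of ectodysplasin (chromosome X, 97333840 to 97377216, minus strand). It had 166 and 86 counts in control and 465 and 381 in YAP5SA, or 15.0 and 11.4 CPM against 31.3 and 28.9 CPM. Replicates were close and the groups did not overlap. The rise of 2.27-fold (log2 fold change 1.18, SE 0.214) had an adjusted p of 0.0493, just under the threshold. The call was lost with the stricter filter (adjusted p = 0.0509), with limma-voom (0.0505), with the replicate number as a block (0.0688), with the numbers crossed in that block (0.0691) and without either YAP5SA library (0.314 and 0.412), in each case with a log2 fold change of 1.15 to 1.26. Over all alternatives the adjusted p of Eda2r ran from 3.93e-10 to 0.412.

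**Figure D3:**
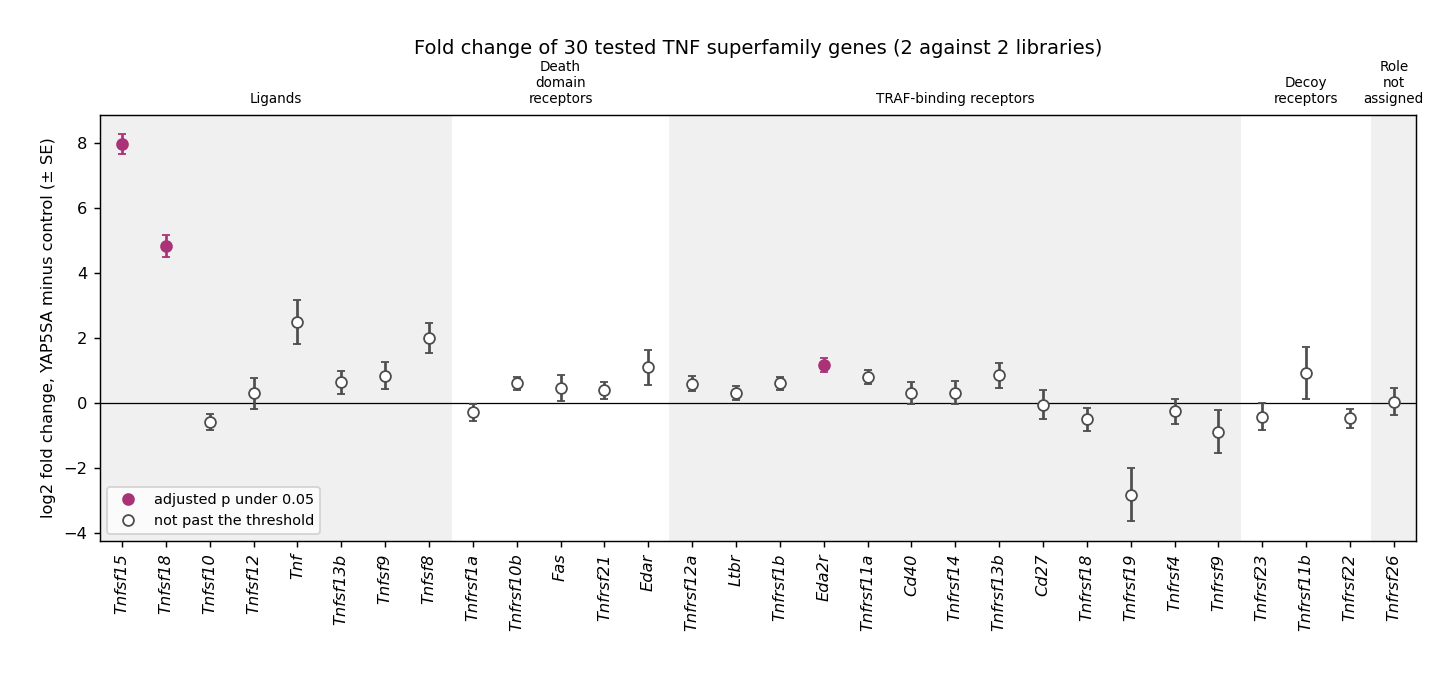
Log2 fold change, YAP5SA minus control, with its standard error for the 30 tested members by role; filled points are those with an adjusted p under 0.05. Tnfsf15 at 7.98, Tnfsf18 at 4.85 and Eda2r at 1.18 are filled, and Tnfrsf19 at -2.82 has the lowest value and a wide error.

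Of the 5 tested death domain receptors, 0 passed with edgeR in either direction, beside 4.12% of all tested genes. An unadjusted p under 0.05 was found for 1 (Tnfrsf10b), beside 23.7% of all tested genes. With DESeq2 0 passed, where 5.84% of the same genes were called higher and 3.36% lower. Tnfrsf1a, the main receptor of TNF, was at 147 and 87.6 CPM in control and 95.7 and 96.7 CPM in YAP5SA, so that the YAP5SA values fell between those of the control libraries (log2 fold change -0.29, SE 0.269, adjusted p = 0.562). The direction rested on control replicate 1: without it the log2 fold change was 0.14, and without control replicate 2 it was -0.57 and passed. Fas, the receptor of FAS ligand, was at 30.3 and 12.8 CPM in control and 29.99 and 29.8 CPM in YAP5SA, where control replicate 2 alone stood low (log2 fold change 0.46, SE 0.397, adjusted p = 0.523). Without control replicate 1 its log2 fold change was 1.23 and it passed.

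Tnfrsf10b, which encodes the mouse receptor for TRAIL that can signal death, was at 22.8 and 17.8 CPM in control and 31.1 and 31.2 CPM in YAP5SA. Its groups did not overlap (log2 fold change 0.61, SE 0.196, adjusted p = 0.145), and it passed without either control library. Tnfrsf21, which encodes death receptor 6, was at 21.2 and 13.9 CPM against 21.8 and 24.6 CPM (log2 fold change 0.40, adjusted p = 0.3996), with a log2 fold change of 0.75 past the threshold without control replicate 1. Edar, the ectodysplasin receptor known from hair and tooth development, was at 1.27 and 3.83 CPM in control and 5.32 CPM in each YAP5SA replicate, with no overlap (log2 fold change 1.10, SE 0.541, adjusted p = 0.287). Without control replicate 2 its log2 fold change was 2.10 and it passed. Tnfrsf25, which encodes death receptor 3, the receptor of TL1A, was not tested and had 9 and 10 counts in control and 5 and 7 in YAP5SA, a ratio of summed counts of 0.42 (counting interval 0.186 to 0.910).

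Among the TRAF-binding receptors, Tnfrsf12a was the most abundant member. It encodes Fn14, a receptor induced in injured tissue, and was at 98.6 and 141 CPM in control and 171 and 194 CPM in YAP5SA. Both YAP5SA libraries were above both control libraries, by a log2 fold change of 0.60 (SE 0.228) that missed the threshold (adjusted p = 0.192). Without control replicate 2 the log2 fold change was 0.92 and without control replicate 1 it was 0.38, past the threshold in both cases. Tnfrsf11a, which encodes RANK, known from bone resorption, was at 17.4 and 13.2 CPM in control and 27.1 and 26.7 CPM in YAP5SA (log2 fold change 0.81, SE 0.210, adjusted p = 0.0976). It passed with no filter and without either control library.

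Tnfrsf1b, the second TNF receptor gene, was at 32.6 and 26.3 CPM in control and 42.5 and 47.5 CPM in YAP5SA, with no overlap (log2 fold change 0.61, SE 0.189, adjusted p = 0.138). Its log2 fold change was 0.78 without control replicate 1 and 0.50 without control replicate 2. Ltbr, which encodes the lymphotoxin beta receptor, was at 54.2 and 38.1 CPM against 56.7 and 57.8 CPM (log2 fold change 0.31, SE 0.217, adjusted p = 0.435) and passed, at 0.60, without control replicate 1. YAP5SA levels were thus above control by 1.24-fold to 1.75-fold for Tnfrsf11a, Tnfrsf12a, Tnfrsf1b and Ltbr, none of which passed.

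Tnfrsf19, which encodes TROY, a receptor known from the developing nervous system and hair follicle, had the lowest fold change of the family. It was at 21.7 and 3.83 CPM in control and 1.62 and 2.05 CPM in YAP5SA. Control replicate 1 stood far above the other 3 libraries, and the control pair differed 5.67-fold. The log2 fold change of -2.82 (SE 0.824) missed the threshold (adjusted p = 0.124). It passed with DESeq2 (adjusted p = 0.00432), with no filter and without control replicate 2, where the log2 fold change was -3.53. Without control replicate 1 it was -1.06 and did not pass. Over all alternatives the adjusted p of Tnfrsf19 ran from 1.34e-37 to 0.492.

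The 7 other tested TRAF-binding receptors, Cd40, Cd27, Tnfrsf4, Tnfrsf9, Tnfrsf13b, Tnfrsf14 and Tnfrsf18, are best known from lymphocytes and antigen-presenting cells and lay between 0.2695 and 4.63 CPM in every library. Their log2 fold changes ran from -0.87 (Tnfrsf9) to 0.85 (Tnfrsf13b), with adjusted p of at least 0.2400. The 3 untested ones were lower still. Tnfrsf17, which encodes the plasma cell receptor BCMA, had 4 counts in each control library and 0 in both YAP5SA libraries, at least 2.07-fold lower against a floor of 3 counts per library. Tnfrsf8, which encodes CD30, had 6 and 1 counts against 0 and 0, at least 1.57-fold lower. That bound rests on control replicate 1, since the 1 count of control replicate 2 is under the floor. Tnfrsf13c, which encodes the BAFF receptor, had at most 3 counts in any library. The B cell marker Cd79a was likewise lower in YAP5SA than in control replicate 1, and its part in these values was not tested.

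The decoy receptors did not move together. Tnfrsf11b encodes osteoprotegerin, a secreted decoy for RANK ligand, and was at 1.54 and 8.99 CPM in control and 6.40 and 13.1 CPM in YAP5SA, so replicates of both groups differed by over 2-fold (log2 fold change 0.93, SE 0.802, adjusted p = 0.524). It passed with no filter and, at a log2 fold change of 2.68, without control replicate 2, while without control replicate 1 the log2 fold change was 0.11. Tnfrsf23 and Tnfrsf22 encode mouse decoy receptors for TRAIL. Tnfrsf23 was at 22.7 and 9.65 CPM in control and 12.3 and 12.2 CPM in YAP5SA, with a log2 fold change of -0.41 (adjusted p = 0.583) that became 0.35 without control replicate 1 and -0.86, past the threshold, without control replicate 2. Tnfrsf22 was at 6.52 and 5.42 CPM against 4.38 and 4.25 CPM (log2 fold change -0.47, adjusted p = 0.380). These 2 genes and Tnfrsf26, at 1.29 to 1.82 CPM, are neighbouring related copies, so how reads were divided among them is uncertain, and exons of Tnfrsf23 and Tnfrsf26 overlap E230032D23Rik on the other strand.

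The control replicates lay further apart than the YAP5SA replicates. Control libraries differed by over 2-fold for 7 of the 30 tested members (Edar, Fas, Tnf, Tnfrsf11b, Tnfrsf19, Tnfrsf23 and Tnfsf12) and YAP5SA libraries for 3 (Tnf, Tnfrsf11b and Tnfrsf9). The median size of the log2 ratio between replicates was 0.39 in control and 0.18 in YAP5SA over the tested members, and 0.38 and 0.16 over all tested genes. With 1 control library left out, the number of members that rose was 13 (without replicate 1) or 12 (without replicate 2) and the number that fell was 1 or 3. Calls over all genes grew in the same fits, to 18.8% higher and 17.4% lower without control replicate 1 and to 19.7% and 18.6% without control replicate 2, so the members' counts stand against those shares. With 1 YAP5SA library left out, 2 rose (Tnfsf15 and Tnfsf18) and 0 fell, beside 0.362% and 0.143% of all genes that rose.

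**Figure D4:**
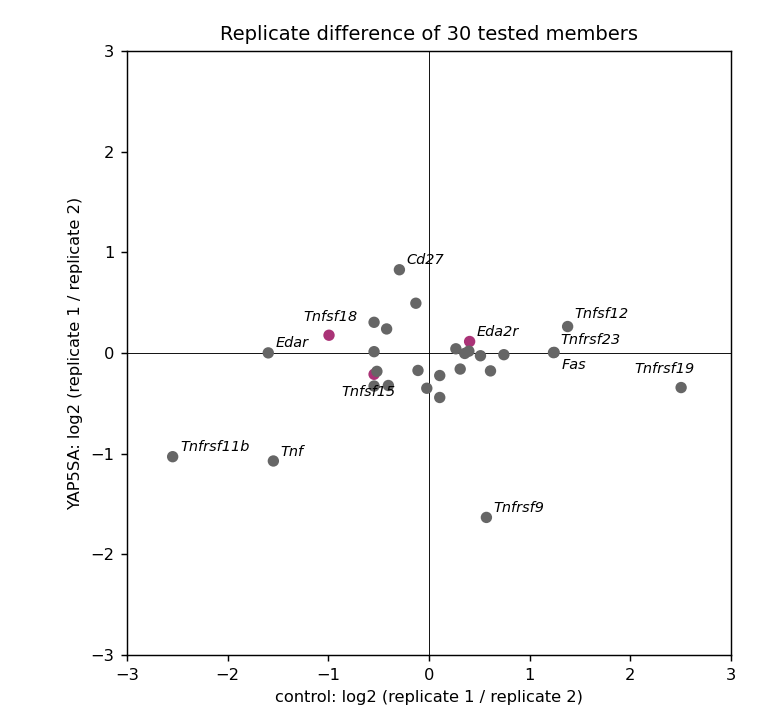
Log2 ratio of replicate 1 to replicate 2 in control (x axis) against the same ratio in YAP5SA (y axis), 1 point per tested member, with the 3 that rose in purple. Points spread along the x axis from -2.55 (Tnfrsf11b) to 2.50 (Tnfrsf19), while most lie close to 0 on the y axis.

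Ligands and their known receptors can be set side by side. The receptor of TL1A, Tnfrsf25, was not tested and had 9 and 10 counts in control and 5 and 7 in YAP5SA. Its ligand gene Tnfsf15 rose 252-fold in the fit, from 2 counts in each control library. The counting interval of that rise, from summed counts, was 103 to 971. Tnfrsf18, which encodes GITR, was at 2.99 and 2.78 CPM in control and 1.89 and 2.20 CPM in YAP5SA (log2 fold change -0.50, adjusted p = 0.439) while its ligand gene Tnfsf18 rose 28.8-fold. Exons of Tnfrsf18 overlap Gm16008 on the other strand, and without a stated strand setting in the counting, reads of such partners cannot be told apart. For Eda2r, the ligand gene Eda, which lies outside the rule, was at 7.34 and 8.33 CPM in control and 6.40 and 8.05 CPM in YAP5SA (adjusted p = 0.835). For Tnfrsf12a, the ligand gene Tnfsf12 is given above. Of the other superfamily genes outside the rule, Ngfr was at 4.17 and 2.51 against 1.82 and 2.13 CPM (adjusted p = 0.314), Relt, a TRAF-signaling receptor gene, at 11.8 and 9.78 against 10.04 and 11.5 CPM (adjusted p = 0.997), and Cd70 had 0 counts in every library.

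Many family members are neighbours on the chromosome. Of the protein-coding members 22 lie in 9 groups in which each is within 500 kb of the next, among them Tnfsf15 and Tnfsf18. Tnfsf8 lies 86.2 kb from Tnfsf15, and both had higher values in both YAP5SA libraries, as did 28.1% of all tested genes. Both genes reached the filter level in the YAP5SA libraries alone. Among the other tested genes within 500 kb of Tnfsf15, Col27a1, Akna and Tnc were also higher in both YAP5SA libraries. For Orm2, Whrn and Atp6v1g1 the groups overlapped. Tnfsf4, which encodes the ligand of OX40, lies 76.2 kb from Tnfsf18 and had 1 count in each control library and 2 and 3 counts in YAP5SA, and Fasl, 275 kb away on the other side, had 1 and 0 against 5 and 3 counts. Within 500 kb of Tnfsf15 there were 11 protein-coding genes in the table, of which 7 were tested, and the smallest adjusted p among them, 0.0753, was that of Tnfsf8. Within 500 kb of Tnfsf18 there were 13, of which 10 were tested and 1 passed, beside 4.12% of all tested genes. That gene, Ankrd45, fell (84 and 58 counts in control, 10 and 6 in YAP5SA, adjusted p = 0.0244), as did 0.999% of all tested genes. Whether its fall is linked to its position was not tested.

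Compared per kilobase of annotated exon, Tnfrsf12a was the highest member in both groups by mean, at 62.1 ± 15.6 CPM per kb in control and 94.3 ± 8.38 in YAP5SA (SD, n = 2). Tnfrsf1a followed with 45.2 ± 16.1 and 37.1 ± 0.2898 CPM per kb, and the control values of these genes overlapped within their spread. Ltbr was the third in both groups, with 19.6 ± 4.86 and 24.3 ± 0.316 CPM per kb. In control the next were Fas, Tnfrsf1b and Tnfrsf21. In YAP5SA they were Tnfsf18 with 20.1 ± 1.75, Tnfsf15 with 17.0 ± 1.76 and Fas with 14.5 ± 0.0486 CPM per kb, and the SD ranges of Tnfsf18 and Tnfsf15 overlapped. By this order Tnfsf18 stood at place 22 of 43 in control and 4 in YAP5SA, and Tnfsf15 at 39 and 5. Whether reads in introns were counted is not given in the sources, and dividing by exon length assumes that they were not.

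Downstream of the receptors, a list of 47 adaptors, kinases, caspases, ubiquitin enzymes, NF-kB factors and shedding proteases was followed, of which 46 were tested. Of these 1 rose and 0 fell with edgeR, beside 3.12% and 0.999% of all tested genes. At an unadjusted p under 0.05 there were 12 higher and 0 lower, beside 12.7% and 10.9%. DESeq2 called 2 higher and 0 lower, beside 5.84% and 3.36% of the 17715 genes. The median log2 fold change was 0.20. The gene that rose was Tnfaip3, which encodes A20, a deubiquitinase that restrains NF-kB and is itself an NF-kB target. It was at 12.05 and 10.97 CPM in control and 33.4 and 29.2 CPM in YAP5SA, with close replicates and no overlap (log2 fold change 1.44, SE 0.191, adjusted p = 0.0316). The call was lost without YAP5SA replicate 1 (adjusted p = 0.217) or replicate 2 (adjusted p = 0.258) and held under the other 11 alternatives, where over all 13 its adjusted p ran from 2.50e-12 to 0.258. Macrophages also express A20, and their markers were higher in the same libraries; their part in this rise was not tested.

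Next by p was Rhbdf1, which encodes iRhom1, a cofactor of the TNF-shedding protease ADAM17. It was at 38.8 and 48.1 CPM in control and 74.5 and 81.5 CPM in YAP5SA (log2 fold change 0.85, SE 0.184, adjusted p = 0.0691), and passed with DESeq2, with no filter and without either control library. Of the genes with a negative fold change, the smallest adjusted p belonged to Tab3, which encodes an adaptor of the kinase TAK1, at 31.3 and 27.0 CPM against 23.0 and 19.4 CPM (log2 fold change -0.46, adjusted p = 0.227). It was followed by Otulin, which encodes a deubiquitinase for linear chains, at 29.4 and 105 CPM against 32.5 and 32.1 CPM (log2 fold change -1.05, adjusted p = 0.320). Control replicate 2 alone was high for Otulin, and without it the log2 fold change was 0.17. Without control replicate 1 it was -1.70 and Otulin passed as lower, as it did with no filter.

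Over all tested genes, 45.7% had a positive fold change and for 28.1% both YAP5SA libraries were above both control libraries. With edgeR, 3.12% of them rose and 0.999% fell at an adjusted p under 0.05. At an unadjusted p under 0.05, 12.7% were higher and 10.9% lower, and the counts by role stand against these shares. By role, all 10 tested death domain adaptors and caspases had a positive fold change (median 0.35), and for 9 of them both YAP5SA libraries were above both control libraries, but 0 passed and 3 had an unadjusted p under 0.05. The 4 shedding genes were likewise all higher in both YAP5SA libraries (median 0.38, 0 passed, 2 with an unadjusted p under 0.05). Of 8 NF-kB factors and inhibitors 6 were higher in both YAP5SA libraries (median 0.44, 0 passed, 3 with an unadjusted p under 0.05). The medians were 0.10 for the 6 TRAF genes, 0.03 for the 9 kinases and adaptors leading to NF-kB and -0.08 for the 9 ubiquitin enzymes. The 2 genes called by DESeq2 were Tnfaip3 and Rhbdf1.

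**Figure D5:**
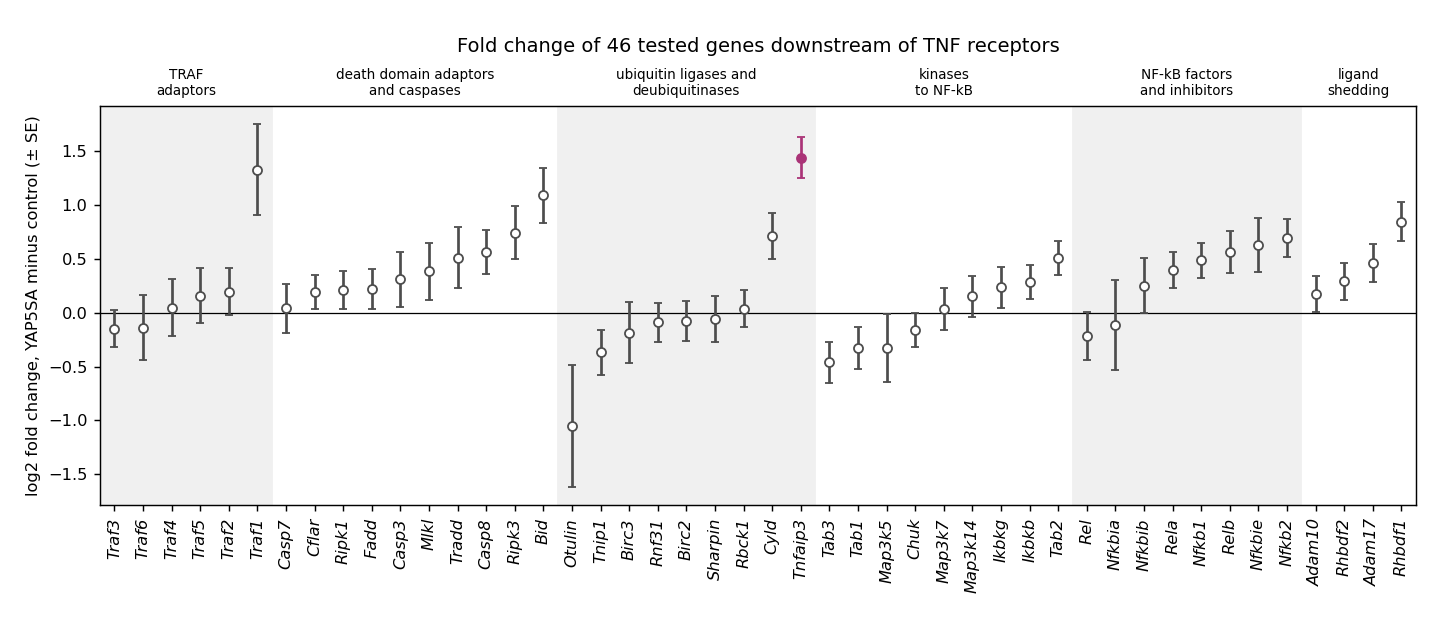
Log2 fold change, YAP5SA minus control, with its standard error for the 46 tested genes downstream of TNF receptors, ordered within each role. Tnfaip3 at 1.44 is the filled point with an adjusted p under 0.05, and Otulin at -1.05 has the widest error.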

How the data were processed

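Nuclear RNA-seq libraries, 2 control and 2 YAP5SA, were analysed, and the ATAC-seq and 4C-seq samples were not analysed here. The authors' deposited table holds raw counts per gene symbol. Per the labels' protocols, libraries were stranded, depleted of ribosomal RNA, read from both ends and were mapped to mm10 with STAR. The submitters' processing notes name DESeq2. The sources used here do not give the counting program, its strand setting or its annotation.

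From the counts, genes were kept by filterByExpr (minimum count 10), which left 17715, and normalised by TMM. Groups were compared with edgeR 4.0.16 in R 4.3.3 (glmQLFit and glmQLFTest, quasi-likelihood), with Benjamini-Hochberg adjustment over all tested genes and a threshold of 0.05. Each SE was obtained from the fold change and its F statistic (log2 fold change over root F). Alternatives were DESeq2 1.42.0, limma-voom (limma 3.58.1), other scalings and filters, a replicate block and leaving out each library. An exact permutation test of 2 against 2 libraries cannot go below p = 0.333 and was not used. Floors (3 counts) and 95% intervals cover counting error alone, because no molecular identifiers are described. The fits were also run on simulated counts with the same spread for all genes and both groups. In these data the control replicates lay further apart, so those runs cannot show how often calls here are wrong. Coordinates and exon lengths are from GENCODE M21 (GRCm38), where all 43 members matched. Promoter windows are from RefSeq. No protein sequence was used.

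Members, lists and roles were chosen with earlier results of these data known. Members that passed, or with a mean of at least 5 CPM in a group, or untested with at least 20 counts, were given per library; so were other members singled out after their values were seen. Of the downstream list, genes that passed and those with the smallest adjusted p in each direction (2 each) were named.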

Additional observations from a re-analysis of the deposited data

How the results depend on the processing

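Tnfsf15 and Tnfsf18 kept their call under all 13 alternatives, with log2 fold changes of 7.70 to 8.26 and 4.39 to 5.41. The number of members that rose, 3 in the report, was 7 with no filter on low counts (Eda2r, Tnf, Tnfrsf11a, Tnfrsf11b, Tnfsf15, Tnfsf18 and Tnfsf8) and ran from 2 to 13 when single libraries were left out. The number that fell, 0 in the report, was 1 with no filter and 1 with DESeq2 (Tnfrsf19 in both), which was run on all 30546 genes with a count and, as an alternative chosen after seeing the data, on the 17715 filtered genes, with the same calls, and ran from 0 to 3 without single libraries. Of the downstream genes, 6 rose and 1 fell with no filter, 2 rose with DESeq2 on either set of genes, and 0 to 16 rose and 0 to 5 fell without single libraries. Without 1 control library 17.4% to 19.7% of all genes were called in each direction. The cause was not tested. A fit without 1 library assumes that the lone library of its group varies like the other pair. With no filter 5.65% of 30546 genes were called higher and 5.53% lower, against 3.12% and 0.999% of 17715 in the report. DESeq2 called 3.50% higher and 1.73% lower of the 30546 genes, and 5.84% and 3.36% of the 17715. The counts of members and downstream genes under these settings stand against those shares. The median log2 fold change of the tested members was 0.51 with the replicate number as a block and ran from 0.40 to 0.59 without single libraries.

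When a library was left out, the direction turned for 5 of 30 tested members and 14 of 46 downstream genes, none of which had passed. The log2 fold changes ran from -0.50 to 0.32 for Cd27, -0.57 to 0.14 for Tnfrsf1a, -0.86 to 0.35 for Tnfrsf23, -0.20 to 0.28 for Tnfrsf26, -0.16 to 1.19 for Tnfsf12 and -1.70 to 0.17 for Otulin. Nfkbia, among the 14, was called higher without control replicate 1 and lower without control replicate 2. Under the other alternatives no member turned, and 2 downstream genes did (Map3k7 and Nfkbia). The replicate numbers were not treated as pairs: deviations of same-numbered libraries correlated at -0.10 across genes, and with the number as a block 321 genes rose and 112 fell over all genes, 2 of them members (Tnfsf15 and Tnfsf18). With the numbers crossed, an alternative chosen after seeing the data, these counts were 328 and 103, again with 2 members, and the members' median was 0.50. Depth limits the 13 untested members, where 3 counts correspond to 0.202 to 0.397 CPM.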
